A study of Mus musculus with 38 samples.

Results

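HSF1 and HSF2 were compared in mitotic mouse embryonic stem cells at the regions where both factors had a binding site. The site lists join those called in asynchronous and in mitotic cells, so a site in them need not have been called in mitosis. A member is a pair made of an HSF1 interval and an HSF2 interval that share at least 1 bp, with repeated HSF2 intervals counted once. There were 888 such pairs, built from 883 of the 1726 HSF1 intervals and 868 of the 2135 distinct HSF2 intervals. Of these, 5 HSF1 intervals and 19 HSF2 intervals stood in more than 1 pair.

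CUT&Tag, in which an antibody guides a transposase to the DNA beside a bound protein, was performed on JM8 cells with antibodies against HSF1 and HSF2. For HSF1 the sample labels name an ENZO antibody and the paper's methods one from Abcam. Which of them was used is not known here. Asynchronous cells were untreated, and mitotic cells were collected by shake-off after 6 h in nocodazole at 50 ng/ml. The same HSF2 intervals were also measured in Hsf2 knockout JM8 cells that overexpressed Halo-HSF2, with anti-HSF2 or with anti-HA, or that carried Halo-H2DBD, the DNA-binding domain of HSF2 alone, with anti-HA. SOX2 was measured in the wild type cells. Every condition had 2 libraries, and each deposited value is the authors' average over both, as mean spike-in scaled coverage (signal) over an interval. Single libraries do not stand in these columns, so differences could not be compared with replicate variation, and all values are descriptions without a test. Sequencing totals do not stand there either, and the read totals in the paper's supplement, of which those of the anti-HA libraries could be read, were not used here.

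HSF1 and HSF2 are related transcription factors that bind heat shock elements, runs of the short unit GAA in alternating orientation. HSF1 is best known as the activator of chaperone genes after heat or other damage to proteins, and HSF2 is better known from development, from gametes and from complexes with HSF1. Chaperones of the HSP70, HSP90, HSP40 and chaperonin families fold new proteins and refold damaged ones.

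The elements shown here are examples from the classes of pairs described further on. They lie at genes with a known part in folding and at genes with the widest difference in rank. Others are rare elements at pairs where HSF1 ranked higher in the score table. The search was for GAANNTTCNNGAA and TTCNNGAANNTTC, which are 3 units with 2 free bases between them. Each form is the reverse complement of the other, so the search covers both strands. Capitals mark the units of 1 match, and every window gives the plus strand of mm10 (GRCm38) with 8 bases on either side. The sequence is that of the RefSeq GRCm38.p6 genome. Of the 886 pairs with reference sequence, 177 (20.0%; Wilson 95% interval over pairs, 17.5% to 22.7%) held a match in the overlap of their intervals, against 4.06% and 3.72% of windows of the same widths 2 kb to the left and to the right. A match describes the letters only.

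At pairs high for both factors, the windows lie 41 bp upstream of the nearest coding start (Hspd1), 44 bp downstream within a UTR (Hsph1), 318 bp upstream between genes (Stip1) and 376 bp downstream in an intron (Tcp1). The pair at Hspd1 and Hspe1 holds 2 matches that overlap each other, and capitals mark 1 of them.
Hspd1 and Hspe1, chr1:55088051-55088079: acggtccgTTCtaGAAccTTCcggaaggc
Hsph1, chr5:149636280-149636308: actgaggaGAActTTCcaGAAtctgcagc
Stip1, chr19:7040271-7040299: cctgttctTTCtgGAAatTTCcacaactc
Tcp1, chr17:12916804-12916832: taagggaaGAAtgTTCgaGAAtgcacacg

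At pairs ranked higher for HSF2, the windows lie 37 bp upstream of the nearest coding start within a UTR (Chordc1), 55 bp downstream within a UTR (Serpinh1), 897 bp downstream in an intron (Hspb1), 1332 bp downstream in an intron (Sulf2), and between genes 592 bp upstream of Myrf, 412 bp upstream of Aldh1a2 and 10479 bp upstream of Hspb8. The Chordc1 pair holds 3 matches that overlap each other and the pair upstream of Hspb8 holds 2, and capitals mark 1 match of each. By the second HSF1 means, described below, the pair at Serpinh1 was in no class and that at Aldh1a2 was high for both. Their windows are thus of this class only by the score table.
Chordc1, chr9:18292255-18292283: tgcaaccgGAAcgTTCggGAAaattcctg
Serpinh1, chr7:99353170-99353198: tgtcccaaGAAacTTCtgGAAagttggaa
Hspb1, chr5:135888901-135888929: tcagaaggGAAgtTTCtgGAAagttttaa
Sulf2, chr2:166153939-166153967: gccaatcaGAActTTCagGAAgtggggag
Myrf, chr19:10241326-10241354: tctacataGAActTTCtaGAAtggtggaa
Aldh1a2, chr9:71215363-71215391: gtcggcggTTCcaGAAggTTCtccttggg
Upstream of Hspb8, chr5:116433329-116433357: gtggcatgGAAtcTTCcaGAAacttcttg

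At pairs ranked higher for HSF1 by the score table, matches were rare, and those assigned to a gene lie between genes 124 bp upstream of Hist1h2bc and 14 bp upstream of Hist1h2bf, and within a UTR 105 bp downstream of the Sf1 start. None of these 3 pairs kept that class with the second HSF1 means, described below, so these windows do not mark a preference for HSF1 that both sets share.
Hist1h2bc, chr13:23684061-23684089: aaatctgcTTCtgGAAacTTCatttgcat
Hist1h2bf, chr13:23574196-23574224: gtgagaatTTCtgGAActTTCacggaggc
Sf1, chr19:6364013-6364041: agctcccgGAAggTTCgtGAAggagaagt

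The levels of HSF1 and HSF2 are scaled apart, so each interval was given its percentile, the percent of all intervals of the same factor with a lower mitotic signal. A pair was called higher for 1 factor when its percentile exceeded that of the other factor by 25 points or more, and high for both when both percentiles reached 75. By these rules 187 pairs (21.1% of the 888) were higher for HSF1, 209 pairs (23.5%) were higher for HSF2 and 156 pairs (17.6%) were high for both. The other 336 pairs met none of the rules, and 37 of them lay below the percentile of 25 for both factors. Arrdc3, Tle4 and Eif1 stood among the pairs higher for HSF1, Myrf, Hspb1 and Chordc1 among those higher for HSF2, and Hspd1 with Hspe1, Stip1 and Hsph1 among those high for both.

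**Figure D1:**
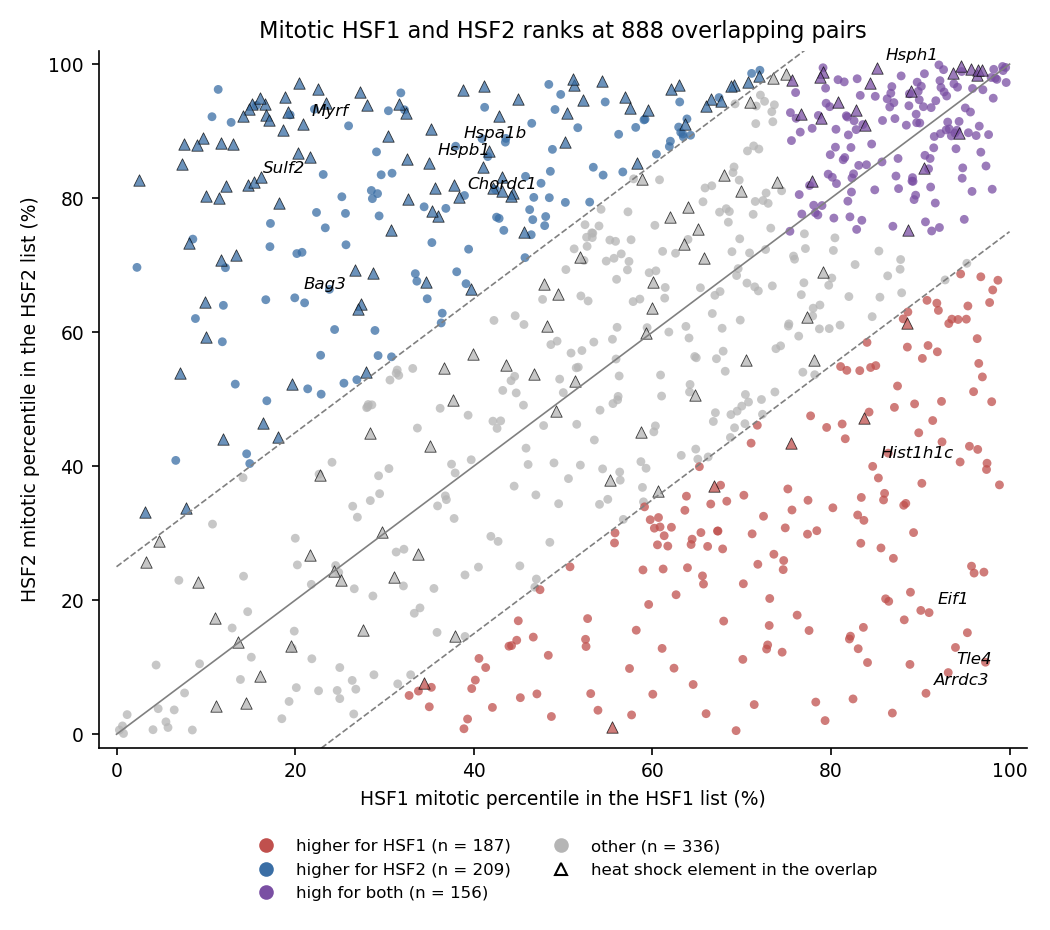
Mitotic percentile of HSF1 (x axis, percent) and HSF2 (y axis, percent) at the 888 pairs, 1 point per pair, coloured by class; triangles hold a heat shock element, and dashed lines stand 25 points from equality. The triangles gather at the upper left, where 96 of the 209 pairs higher for HSF2 hold an element.

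The intervals of pairs ranked above the rest of each list. The median mitotic percentile in pairs was 61.4 for HSF1 and 65.1 for HSF2, against 36.8 at the 843 HSF1 intervals and 41.3 at the 1267 HSF2 intervals outside pairs. HSF1 ranked higher by any amount at 420 pairs and HSF2 at 468. The median of the HSF1 minus the HSF2 percentile was −1.25 points, with quartiles of −22.5 and 20.1 and a range of −84.8 to 86.6. Across the 888 pairs, which share an antibody and a pair of averaged libraries within each factor, the Spearman correlation of the percentiles was 0.26. A second set of HSF1 means, described below, correlated with HSF2 at 0.51 and with the HSF1 percentiles used here at 0.62 over the same pairs, so how far the factors differ in order depends on the set of HSF1 means.

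The overlaps ran from 9 to 17203 bp, with a median of 1893 bp. The smallest, of 9 bp, lies at chr6:136805635-136805643, where HSF1 stood at the percentile of 25.0 and HSF2 at 9.95. The next overlaps measured 221, 293, 341 and 460 bp, and the one of 341 bp lies at Phf21a, a reader of unmethylated histone H3. Just outside the rule, the nearest intervals without overlap were 372, 374, 440, 459 and 459 bp apart. The pair of intervals 372 bp apart lies in the histone cluster of chromosome 13, with HSF1 from 23763578 to 23765402 and HSF2 from 23760132 to 23763205.

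The second set of HSF1 means, carried by the deposited list of HSF1 sites, ranked the HSF1 intervals differently, and its scaling is not stated. Its median mitotic value was 1.14, against 4.07 in the score table used here, and over the 1726 HSF1 intervals the mitotic ranks of both sets correlated with a Spearman rho of 0.67. With the second means the counts were 152 higher for HSF1 (17.1%), 142 higher for HSF2 (16.0%) and 203 high for both (22.9%). Of the pairs called from the score table, 114 of 187 (61.0%) stayed higher for HSF1, 94 of 209 (45.0%) stayed higher for HSF2 and 132 of 156 (84.6%) stayed high for both. Among those that had been higher for HSF2, 49 became high for both and 3 became higher for HSF1. Hspb1, Chordc1, Fkbp4, Eif1 and Hspd1 with Hspe1 kept their class with both sets, whereas Hspa1a, Aldh1a2 and most histone pairs did not.

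Among the pairs higher for HSF1, the named genes with the widest difference are of varied function. Arrdc3, an arrestin-like adaptor of receptor trafficking, had a mitotic signal of 9.90 for HSF1 and 2.31 for HSF2, which put it at the percentiles of 90.6 and 6.11. Tle4, a corepressor of the Groucho family, stood at 93.1 for HSF1 and 9.20 for HSF2. Rab4b, a small GTPase of endosome recycling, stood at 88.8 and 10.4. Prpsap1, which associates with the enzyme that makes phosphoribosyl pyrophosphate, stood at 78.3 and 4.80. Eif1, which helps the ribosome choose the start codon, stood at 91.0 and 18.1. Asmt, the last enzyme of melatonin synthesis, stood at 95.7 and 25.1, and 82.1% of its overlap was repeat sequence. The overlap of each of these pairs other than Asmt contained the coding start, and none held an element. Each value is a mean over the factor's own interval, and the HSF2 interval was the wider at all of these pairs. It measured 3641 bp against 3043 bp at Prpsap1, 2945 bp against 778 bp at Rab4b and 6229 bp against 1118 bp at Eif1. The HSF2 mean thus also covers bases outside the HSF1 interval. The pair with the widest difference of all was assigned to no gene: at chr16:3343045-3346488, HSF1 stood at 97.3 and HSF2 at 10.7.

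Among the pairs higher for HSF2, the named genes likewise have no function in common. Ankrd26, an ankyrin repeat protein, had a mitotic signal of 1.56 for HSF1 and 14.3 for HSF2, at the percentiles of 12.8 and 91.3. Dedd2, a death effector domain protein of the nucleus, stood at 19.4 for HSF1 and 92.4 for HSF2, with HSF1 at 53.3 by the second means. Myrf, a membrane-bound transcription factor of myelin-forming cells, stood at 20.9 and 91.0, and with the second means HSF1 stood at 65.9, which left a difference of −25.1 points, just past the limit. Sulf2, a sulfatase that edits heparan sulfate, stood at 15.4 and 82.5. Aldh1a2, which makes retinoic acid, stood at 16.2 for HSF1 and 83.2 for HSF2, and with the second HSF1 means HSF1 stood at 90.5, so the difference turned from −67.0 to 7.32 points. The pair at Hspa1a and Hspa1l, stress-inducible and testis forms of HSP70, stood at 30.4 and 93.0, and with the second means HSF1 stood at 90.7. At Ccdc117 HSF1 stood at 32.2 and HSF2 at 93.2, and at 4930447C04Rik the percentiles were 41.1 and 96.8, with HSF1 at 74.0 by the second means. Myrf, Sulf2, Aldh1a2 and 4930447C04Rik each held 1 element.

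Pairs assigned to no gene reached the widest differences towards HSF2. At chr7:62230162-62232094, HSF1 stood at the percentile of 11.4, or 57.4 by the second means, and HSF2 at 96.2. At chr5:118308604-118309585, with 2 elements, HSF1 stood at 7.50 and HSF2 at 88.1. The pair upstream of Hspb8, which encodes a small heat shock protein, had signals of 1.77 for HSF1 and 18.5 for HSF2, at the percentiles of 16.0 and 94.96. It was singled out after its values were seen, and it stayed higher for HSF2 with the second means, with HSF1 at 62.7.

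The pairs high for both joined chaperone genes to others. Hspd1 and Hspe1, the mitochondrial chaperonin and its lid, share 1 pair, with a signal of 15.0 for HSF1 and 96.6 for HSF2 and percentiles of 95.7 and 99.3. Hspa8 stood at 96.9 and 99.1, and Hsp90aa1 at 96.3 and 98.4. Slc35e2, a solute carrier, stood at 96.5 and 99.1 and held 2 elements. Crlf2, a subunit of the receptor for thymic stromal lymphopoietin, stood at 97.9 and 98.0. Ppp2r3d, a regulatory subunit of protein phosphatase 2A, stood at 97.0 and 96.2. The pair at Cdca2, which brings protein phosphatase 1 to chromatin as mitosis ends, and Kctd9 stood at 95.9 and 96.4. Crebzf, a bZIP transcription factor, stood at 98.2 and 94.9, with repeat sequence over 67.6% of the overlap. The highest ranks for both were at chr19:61199550-61199842, a pair assigned to no gene, with 99.6 for HSF1 and 99.5 for HSF2.

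**Figure D2:**
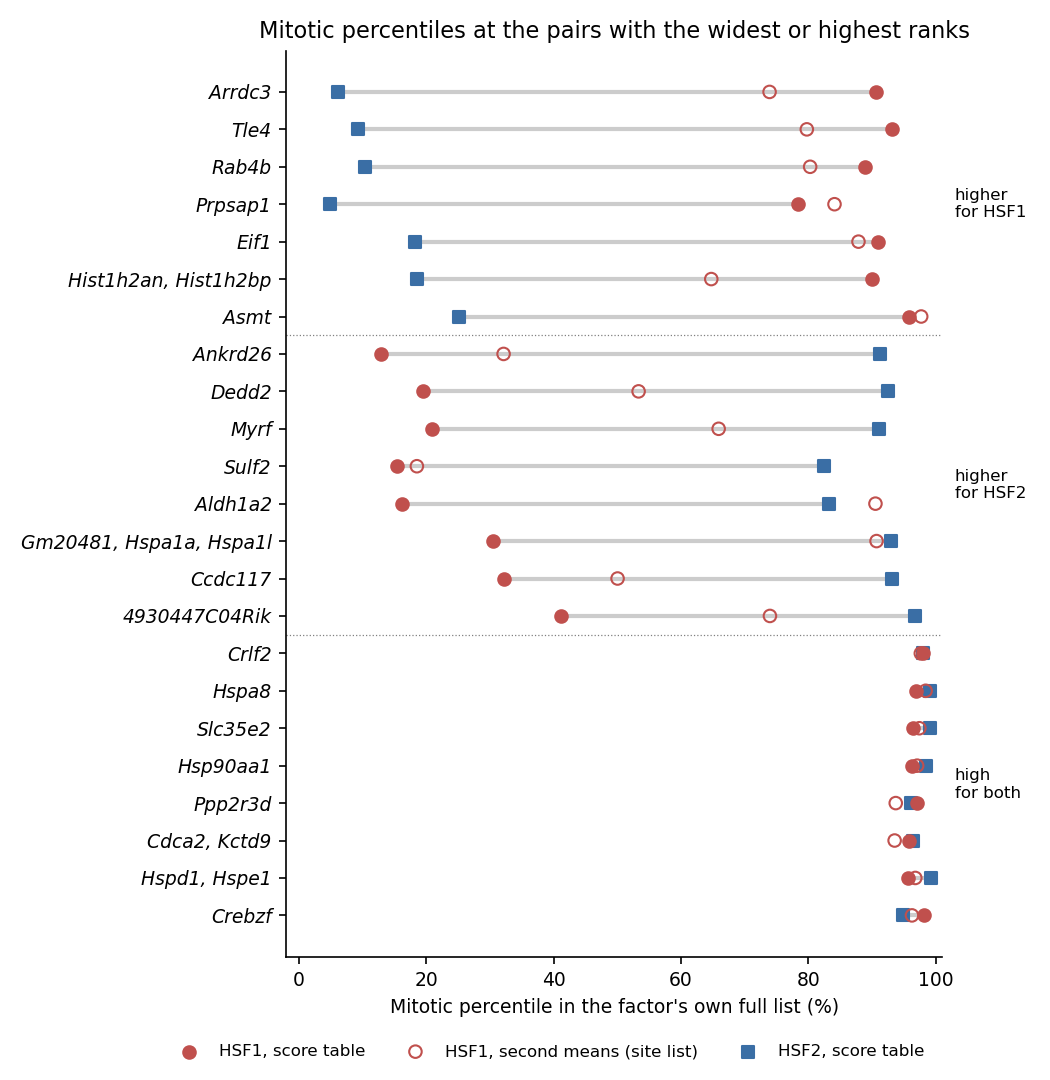
Mitotic percentile (x axis, percent) of HSF1 and HSF2 at the named pairs, grouped by class; filled circles are HSF1 in the score table, open circles HSF1 by the second means and squares HSF2. The open circle passes the HSF2 square at Aldh1a2, where it stands at 90.5, and all 8 pairs high for both stay above 90 by every mark.

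By the score table, chaperone genes leaned towards HSF2 or were high for both. The 4 chaperone lists hold 82 genes and gave 26 pairs, of which 10 were higher for HSF2 (beside 23.5% of all pairs), 10 high for both (beside 17.6%), 1 higher for HSF1 (beside 21.1%) and 5 in no class. Their median percentile was 61.2 for HSF1 and 88.5 for HSF2, beside 61.4 and 65.1 over all pairs. HSF2 ranked higher by any amount at 21 of the 26, beside 468 of the 888 pairs. With the second HSF1 means the median HSF1 percentile was 86.0, close to that of HSF2, and HSF2 ranked higher at 17. Over all pairs the median HSF1 percentile was then 63.8, and the median of the HSF1 minus the HSF2 percentile was −1.01 points. By those means 5 of the 26 were higher for HSF2, near the share of 16.0% over all pairs, 4 were higher for HSF1 (beside 17.1%) and 13 were high for both (beside 22.9%). The lean towards HSF2 thus rests on the score table, while the chaperone pairs high for both stood above the share of all pairs with either set.

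In the HSP70 and HSP110 list, 5 pairs were found. Hsph1, an HSP110 that acts as nucleotide exchange factor of HSP70, had a signal of 8.20 for HSF1 and 96.6 for HSF2, at the percentiles of 85.2 and 99.4. Hspa1b, a neighbour of Hspa1a that encodes the same kind of inducible HSP70, stood at 38.0 for HSF1 and 87.8 for HSF2, and at 90.4 for HSF1 by the second means. The inducible HSP70 genes were thus higher for HSF2 by the score table and high for both by the second means. Hspa4l, another HSP110, stood at 58.9 and 36.8, in no class, and was higher for HSF1 by the second means, at 79.2.

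HSP90 and its co-chaperones gave 8 pairs, 4 high for both (beside 17.6% of all pairs) and 4 higher for HSF2 (beside 23.5%). These counts were the same with the second means, beside 22.9% and 16.0% of all pairs. Stip1, which links HSP70 to HSP90, had a signal of 13.6 for HSF1 and 147 for HSF2, at the percentiles of 94.6 and 99.8. Hsp90ab1, the constitutive cytosolic HSP90, stood at 79.1 and 99.5, and Ahsa2, related to the activator of the HSP90 ATPase, at 91.6 and 89.2. Of the co-chaperones higher for HSF2, Fkbp4, an immunophilin of steroid receptor complexes, stood at 23.4 for HSF1 and 75.6 for HSF2. Chordc1 stood at 38.3 and 80.2, Ahsa1, the activator of the HSP90 ATPase, at 51.7 and 90.5, and Ptges3, the p23 co-chaperone, at 46.3 and 78.3, with HSF1 at 14.1 by the second means. The pairs at the starts of Hsp90aa1 and Hsp90ab1 thus ranked high for both. These 4 co-chaperones kept their lean towards HSF2 with either set of HSF1 means. Another pair holds an element in a coding exon of Hsp90ab1, 3897 bp downstream of the start. It was assigned to no gene and in no class, with an HSF1 minus HSF2 percentile of 10.1 points.

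HSP40, BAG and nucleotide exchange genes gave 5 pairs. Dnajb1, the main inducible HSP40, stood at 90.5 for HSF1 and 98.6 for HSF2, and Hspbp1, an exchange factor of HSP70, at 90.1 and 96.7. Dnaja1, a farnesylated HSP40, missed the class of high for both with 73.6 and 97.9, and entered it with the second means, at 92.7 for HSF1. Bag3, which couples HSP70 to autophagy, was the member higher for HSF2, with 20.0 and 65.1, and HSF1 stood at 78.3 by the second means. Dnajb6, which keeps aggregating proteins soluble, stood at 35.1 and 43.1.

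Chaperonins and small heat shock proteins gave 8 pairs, and 6 of them held an element (beside 20.0% of all pairs). Hspb1, a small heat shock protein, had a signal of 3.06 for HSF1 and 11.5 for HSF2, at the percentiles of 35.0 and 85.2. Serpinh1, the collagen chaperone of the endoplasmic reticulum, stood at 11.9 and 44.0, and HSF1 at 44.5 by the second means, level with HSF2. The subunits of the cytosolic chaperonin differed among themselves. Tcp1 was high for both with 77.8 and 82.6, Cct3 stood at 63.5 and 89.2 and was in no class by the second means, and the pair at Cct7 and Pradc1 was the 1 chaperone pair higher for HSF1, with 96.4 and 42.5. Cct4 stood at 27.5 and 15.6 and Cct8 at 31.1 and 23.5, although each held an element within 1 kb of its start, and by the second means both were higher for HSF1, at 41.4 and 55.1.

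Histone genes leaned the other way in the score table. The list of replication-dependent histones holds 67 genes, 31 of them at a pair, and gave 14 pairs, since neighbouring genes share intervals. Of these, 12 were higher for HSF1 (beside 21.1% of all pairs), 1 was high for both and 1 was in no class, with median percentiles of 84.2 for HSF1 and 38.0 for HSF2. The pair at Hist1h2an and Hist1h2bp, which encode core histones H2A and H2B, had signals of 9.83 and 3.49, at the percentiles of 90.1 and 18.5, with HSF1 at 64.7 by the second means. Hist1h1c, a linker histone, stood at 84.7 and 40.0, with HSF1 at 69.0 by the second means, and the pair of Hist1h3a and Hist1h4a at 86.4 and 41.9. Of the pairs whose windows are shown above, that of Hist1h2bc stood at 83.7 and 47.1, that of Hist1h2bf at 75.5 and 43.5 and that of Sf1, a splicing factor outside the list, at 88.5 and 61.4. By the second means HSF1 stood at 35.8, 31.0 and 68.4 there, so the order turned at both histone pairs and the class was lost at all 3. With the second HSF1 means 4 of the 12 stayed higher for HSF1, beside 114 of the 187 (61.0%) over all pairs. These 4 of the 14 histone pairs stand beside 17.1% of all pairs by those means. The median HSF1 percentile of the 14 was then 47.3, and HSF2 ranked higher at 5, so the lean of this group rests on the score table. On chromosome 13, which carries 12 of the 14, 19 of 31 pairs were higher for HSF1 and 0 were higher for HSF2, beside 21.1% and 23.5% of all pairs. These counts were 10 and 1 of the 31 by the second means, beside 17.1% and 16.0%, and the 1 is the histone pair of Hist1h2ah and Hist1h2bk, where HSF1 stood at 27.8 and HSF2 at 66.7.

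The remaining lists had few pairs. Pou5f1, which encodes OCT4, stood at 70.02 for HSF1 and 49.0 for HSF2, Klf2 at 56.4 and 37.9 and Mycn at 60.6 and 36.3, all in no class. Tbx3, a factor of the same pluripotency list, was higher for HSF1 with 32.8 and 5.78, and HSF1 stood at 85.5 by the second means. Of the 43 mitosis genes 2 had a pair, and both were higher for HSF1 (beside 21.1% of all pairs). They were Ncapd2, a condensin subunit, with 33.8 and 6.44, and Cdc25a, the phosphatase that activates cyclin-dependent kinases, with 45.2 and 5.46. Neither kept the class with the second means, where HSF1 stood at 30.3 and 16.3. Of the 82 ribosomal protein genes 3 had a pair, with Rps29 at 88.4 and 34.4, Rpl41 at 58.2 and 15.5 and Rpl38 at 44.5 and 37.0. HSF1 stood at 63.5 at Rps29 and at 17.5 at Rpl41 by the second means, and Rpl41 lost its class. The proteasome and ubiquitin list gave Ubb, a ubiquitin gene, at 47.7 and 64.9 and the proteasome subunit Psmd3 at 49.6 and 53.0, both in no class. The list of stress genes and HSF regulators gave 0 pairs.

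**Figure D3:**
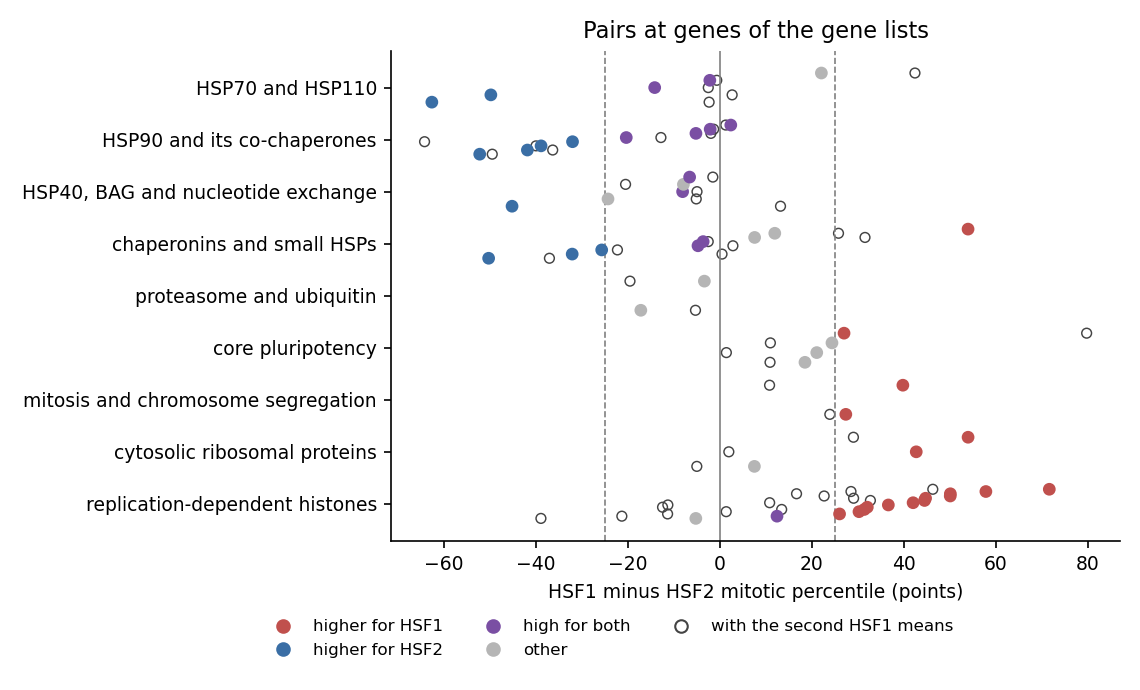
HSF1 minus HSF2 mitotic percentile (x axis, points) at the pairs of each gene list, 1 filled point per pair coloured by class, with the same difference by the second HSF1 means as an open point. Chaperone pairs spread to the left and 12 of 14 histone pairs lie right of the dashed line at 25 points, but only 4 of the open histone points do.

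Heat shock elements marked the pairs higher for HSF2. An element stood in the overlap of 96 of 209 of them (45.9%; Wilson 95% interval over pairs, 39.3% to 52.7%), Myrf, Chordc1 and Hspb1 included. It stood in 6 of 185 pairs higher for HSF1 (3.24%; 1.49% to 6.89%), in 21 of 156 high for both (13.5%; 8.98% to 19.7%) and in 54 of 336 of the others (16.1%; 12.5% to 20.4%). The share at pairs higher for HSF1 was thus near that of the windows 2 kb away, and that at pairs higher for HSF2 well above it. With the stronger sites of each list alone the shares drew closer, to 8.77% of 57 pairs higher for HSF1 and 29.8% of 114 higher for HSF2. The first, from 5 pairs, then stood above the share of the windows. Those windows were taken beside all 886 pairs, and not beside the stronger sites alone. Pairs that had the same class with both HSF1 means gave 46.8% of 94 for HSF2, 0.893% of 112 for HSF1 and 13.6% of 132 for those high for both. By the second means alone the shares were 36.6% for HSF2, 3.33% for HSF1 and 24.6% for those high for both.

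Elements lay nearer to gene starts at pairs high for both than at pairs higher for HSF2. Of all 220 elements, 99 were in introns, 88 between genes and 76 within 1 kb of a coding start, and of the 125 at pairs higher for HSF2 these were 59, 55 and 33. At pairs high for both 17 of 25 stood within 1 kb of a coding start, at pairs higher for HSF1 3 of 6 and at the others 23 of 64. The median distance from the centre of the overlap was 282 bp for all and 242 bp at pairs higher for HSF2. The coding start of a gene lay in the overlap of 94 of 209 pairs higher for HSF2 (45.0%), of 123 of 187 higher for HSF1 (65.8%) and of 113 of 156 high for both (72.4%). Within the pairs higher for HSF2, an element stood in 65 of 115 without a coding start (56.5%) and in 31 of 94 with one (33.0%). At pairs with a coding start the share was still 2.44% of 123 for those higher for HSF1. It was 13.3% of 113 for those high for both and 12.2% of 222 for the others. The share thus stayed lowest for HSF1 and highest for HSF2 near gene starts, while the order of the classes between them turned. A SOX2 site overlapped 26.2% of pairs higher for HSF1, 27.8% of those higher for HSF2 and 23.1% of those high for both, which is near the 26.2% of all pairs.

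Seen from the elements, HSF2 ranked above HSF1. At the 177 pairs with an element the median percentile was 39.9 for HSF1 and 81.8 for HSF2, and at the 709 without it was 65.6 and 61.1. By the second means HSF1 had a median of 60.3 at the pairs with an element and 65.0 at those without. Chaperone pairs held elements in 13 of 26 (beside 20.0% of all pairs). Among them were 6 of the 10 high for both (beside 13.5% of that class) and 3 of the 10 higher for HSF2 (beside 45.9%). The chaperone pairs higher for HSF2 were thus not those richest in elements, and the inducible genes Hspa1a and Hspa1b had 0 matches of this form.

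**Figure D4:**
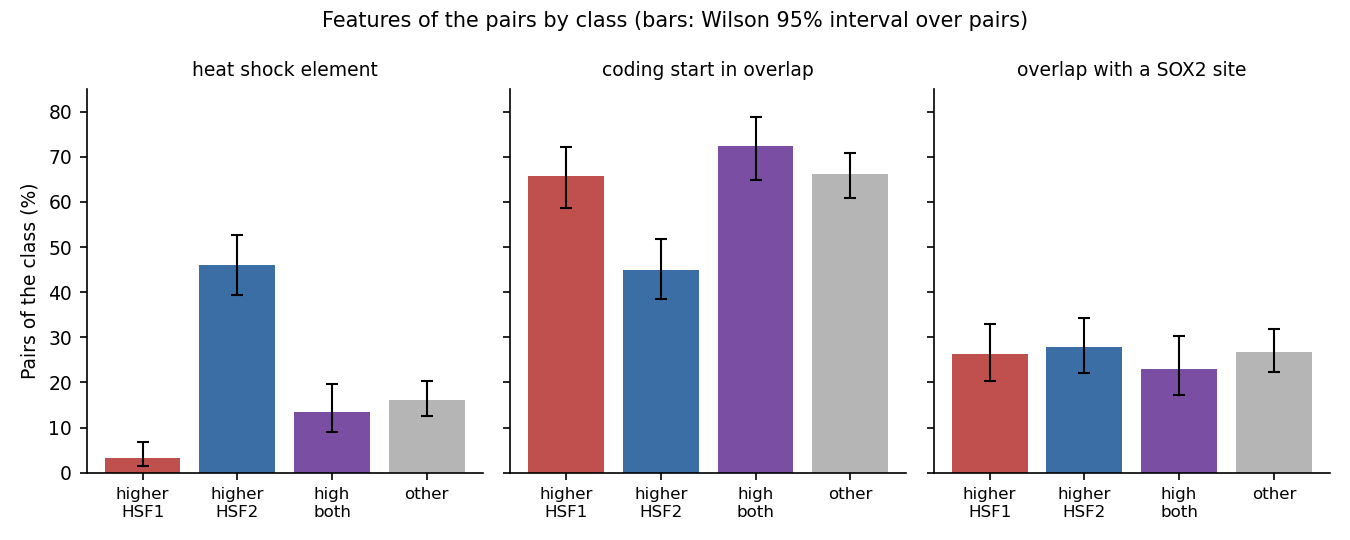
Share of pairs (y axis, percent) in each class with a heat shock element, with a coding start in the overlap and with a SOX2 site; error bars are Wilson 95% intervals over pairs. Elements stand in 45.9% of the pairs higher for HSF2 and 3.24% of those higher for HSF1, while SOX2 sites overlap all classes at 23.1% to 27.8%.

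Tagged HSF2 in the knockout cells followed the rank of endogenous HSF2 more closely at pairs without an element than at pairs with one. At the 177 pairs with an element, the Spearman rho with endogenous HSF2 was 0.19 for Halo-HSF2 with anti-HSF2, 0.25 with anti-HA and 0.25 for Halo-H2DBD, and at the 711 others, 2 of them without reference sequence, it was 0.50, 0.42 and 0.44. At Hspd1 with Hspe1, where endogenous HSF2 stood at 99.3, mitotic Halo-HSF2 with anti-HA stood at 30.0 within the same HSF2 list, and at Hspa1a it stood at 7.66 beside 93.0. At Crlf2 and Crebzf, by contrast, it stood at 96.0 and 98.1. Over the pairs higher for HSF2 the median percentile was 21.9 for Halo-HSF2 with anti-HSF2, 28.7 with anti-HA and 30.0 for Halo-H2DBD. Over those higher for HSF1 the medians were 42.2, 66.5 and 67.4, and over those high for both they were 88.1, 88.2 and 89.5. Among these 3 classes the tagged proteins thus ranked lowest where endogenous HSF2 was the higher factor, and at the 37 pairs low for both factors they ranked lower still, with medians of 13.6, 8.78 and 11.7.

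Over all pairs, the percentile of Halo-HSF2 in mitosis correlated more with HSF1 than with endogenous HSF2. With anti-HSF2 the Spearman rho over the 888 pairs was 0.29 with endogenous HSF2 and 0.49 with HSF1. With anti-HA it was 0.25 and 0.66, and for Halo-H2DBD 0.26 and 0.68. By the second means HSF1 gave 0.32, 0.41 and 0.44 in the same order. With anti-HSF2 that value was near the 0.29 of endogenous HSF2, so the difference there rests on the score table. The points of each correlation share their averaged libraries, and the tagged and endogenous HSF2 values also share the intervals over which they were taken.

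Tagged HSF2 ranked lower at pairs with an element than at pairs without. At the 177 pairs with an element, Aldh1a2 and Serpinh1 among them, the medians were 16.8 with anti-HSF2, 25.2 with anti-HA and 20.6 for Halo-H2DBD, against 56.1, 68.8 and 67.8 at the pairs without. In the class high for both, the 21 pairs with an element, such as Hsph1 and Stip1, had medians of 38.1, 55.5 and 44.2, and the 135 without had 89.7, 90.1 and 91.3. All 3 tagged signals stood at 90 or above at 51 pairs, of which 41 were high for both, Eif5a, Kpnb1 and Rab1a included, and 0 of the 177 pairs with an element were among them. These 3 genes, for a translation factor, a nuclear import receptor and a GTPase of secretion, were picked after their values were seen. Endogenous and tagged HSF2 were measured in different cell lines, and the tagged proteins were overexpressed. The line, the tag, the level of the protein and, with anti-HA, the antibody thus cannot be told apart. The paper describes the Halo-HSF2 signal as weaker than the endogenous one. Control libraries were not set beside these ranks, so a part of background in them was not tested.

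**Figure D5:**
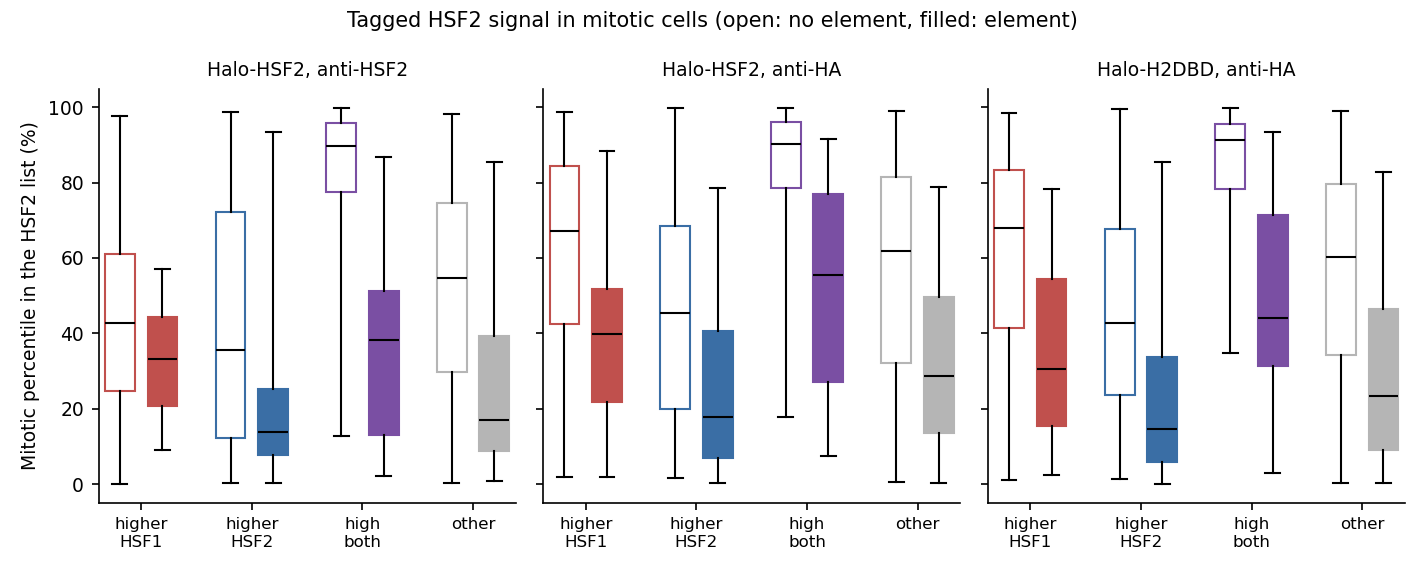
Mitotic percentile within the HSF2 list (y axis, percent) of Halo-HSF2 with anti-HSF2, Halo-HSF2 with anti-HA and Halo-H2DBD with anti-HA, by class; boxes span the quartiles with the median as a line, whiskers reach the extremes, and filled boxes are pairs with an element. In the class high for both the medians with anti-HA are 90.1 without an element and 55.5 with one.

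The mitotic preference resembled the one in asynchronous cells, more at pairs higher for HSF2. In asynchronous cells 24.2% of the 888 pairs were higher for HSF1 and 27.6% higher for HSF2. Of the 209 pairs higher for HSF2 in mitosis, 160 (76.6%) were so in asynchronous cells too, Myrf, Hspb1 and Hspa1a included. Of the 187 higher for HSF1, 106 (56.7%) were, and of the 156 high for both, 76 (48.7%) were, with another 35 higher for HSF1 in asynchronous cells. Few pairs of the other mitotic classes were high for both in asynchronous cells. These were 12 of the 187 higher for HSF1 (6.42%), 5 of the 209 higher for HSF2 (2.39%) and 17 of the 336 others (5.06%). At Crlf2 and Ppp2r3d HSF2 stood at 80.7 and 79.3 in asynchronous cells and at 98.0 and 96.2 in mitosis. The difference in percentiles in mitosis correlated with that in asynchronous cells with a Spearman rho of 0.69 over the 888 pairs, or 0.45 by the second means.

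HSF2 changed rank between the phases more than HSF1 in the score tables. The mitotic and asynchronous percentiles correlated at 0.92 for HSF1 and 0.66 for HSF2 over the pairs. Arrdc3 kept its HSF1 percentile, 93.7 in asynchronous cells and 90.6 in mitosis, while HSF2 stood at 47.8 and 6.11. At Asmt HSF2 stood at 89.9 in asynchronous cells and 25.1 in mitosis. At Bag3 the order was the opposite, with HSF2 at 22.2 in asynchronous cells and 65.1 in mitosis. In the score tables HSF1 and HSF2 were nearly unrelated in rank in asynchronous cells, with a rho of 0.038, beside 0.26 in mitosis. By the second HSF1 means the mitotic value was 0.51, and the asynchronous one was not computed. The correlation of HSF1 between the phases was not computed by those means either.

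Opposite classes in the phases were rare. Tbx3 was higher for HSF2 in asynchronous cells, with 39.2 for HSF1 and 92.8 for HSF2, and higher for HSF1 in mitosis, with 32.8 and 5.78. Zfp64, a zinc finger protein, had the same order, with 40.5 and 73.8 in asynchronous cells and 59.0 and 24.5 in mitosis. The 3 pairs with the reverse order were those at Zpbp, at Fbxl12 with Ubl5, and at chr10:115200655-115201918, a pair assigned to no gene. At Fbxl12, a subunit of a ubiquitin ligase, and Ubl5, a ubiquitin-like protein of splicing, HSF2 stood at 30.1 in asynchronous cells and 91.2 in mitosis. These 5 were named after their values were seen, and all but Zfp64 kept their mitotic class with the second means.

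The width of the intervals moved with the preference. HSF2 intervals were wider than their HSF1 partners at pairs higher for HSF1, with a median ratio of 1.41, and about equal at pairs higher for HSF2, with 1.02. Across pairs the ratio correlated with the HSF1 minus HSF2 percentile at 0.26. With percentiles adjusted for width, 173 pairs were higher for HSF1, 198 higher for HSF2 and 162 high for both. GC content of the overlap correlated with the difference at 0.11 over 886 pairs.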

How the data were processed

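The authors aligned CUT&Tag reads to mm10 with Bowtie2 2.4.2, kept PCR duplicates and scaled coverage to Drosophila spike-in reads with deepTools. They called sites of HSF1 and HSF2 with SEACR against IgG, and took the SOX2 sites from earlier literature. The mean signal (scaled coverage) over each site was deposited, averaged over 2 libraries per condition. The scaling of the means carried by the site lists is not stated. From the deposited signal, percentiles were taken within each factor's full list, with ties sharing a rank. Intervals overlapping by 1 bp or more were paired. A pair was assigned to the protein-coding gene with a GENCODE M21 basic transcript start in the overlap or nearest within 1 kb. Named pairs were the 8 per class with the widest difference, among those at the percentile of 50 or more for the higher factor, or with the highest lower percentile, and pairs at 10 gene lists; 1 named pair is not reported here. The members and lists were chosen with earlier results of these data known. Alternatives were other overlaps, rank scopes, widths, repeats, element forms and the second means. Calculations were tested on simulated data and used Python 3.11.15, numpy 2.4.6, pandas 2.3.3, scipy 1.17.1, pysam 0.24.0 and matplotlib 3.10.9.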

Additional observations from a re-analysis of the deposited data

How the results depend on the processing

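No paired analysis was possible because the deposited columns are the authors' means of 2 libraries, and for the same reason no library could be left out. A count was taken as unmoved within 1.5 times the main value, and a correlation or share within its 95% interval over pairs, so the counts of 152, 142 and 203 by the HSF1 means of the site list fall within a wide limit. Values over all pairs that moved are given below, and the cause was not tested except where fewer pairs remained. List counts and named differences that moved are given only in part. With the stronger sites 5 of 14 chaperone pairs were higher for HSF2 (beside 30.4% of all). Of the histone pairs 4 of 6 were higher for HSF1 (beside 15.2%). Where at least 80% was shared, these were 6 of 11 (beside 26.8%) and 7 of 8 (beside 17.2%). Chaperone pairs high for both were then 3 of 11 (beside 19.5%). Of the 16 named pairs past 25 points, Aldh1a2 reversed to 7.32 with the HSF1 means of the site list, and the pairs at Hspa1a and 4930447C04Rik fell to −2.34 and −22.8. Those means also gave a correlation of HSF1 with HSF2 of 0.51, one of mitotic with asynchronous preference of 0.45, and element shares of 36.6% at pairs higher for HSF2 and 24.6% at pairs high for both. Ranking within the pairs left 93 high for both and a correlation between the phases of 0.73. The stronger sites of each list kept 375 pairs, of which 57 were higher for HSF1, 114 higher for HSF2 and 59 high for both, with a correlation between the phases of 0.57 and element shares of 8.77% at pairs higher for HSF1 and 29.8% at pairs higher for HSF2. Where at least 80% of both intervals was shared, an alternative chosen after seeing the data, 45, 70 and 51 of 261 pairs remained in these classes. Searching for 3 units written as NGAAN is the same pattern and gave the same shares, and 4 units gave shares of 0%, 7.18% and 0.641%. Allowing 1 mismatch, also chosen after seeing the data, gave 29.7%, 77.0% and 36.5%, with 51.4% over all pairs and 39.6% in windows 2 kb to the left. The element shares by stronger sites and by the site list means were added after seeing the data as well. Depth does not stand in the columns used, and the read totals in the paper's supplement were not used, so no limit from depth is given.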

Other observations

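By the score table, more of the pairs with a small RNA gene were higher for HSF1 than in any other class, a feature looked at after the values were seen. A tRNA gene of the RefSeq annotation lay in the overlap of 14 of 187 pairs higher for HSF1, 1 of 209 higher for HSF2 and 0 of 156 high for both, and of 26 of the 888 pairs in all. An snRNA gene lay in 13, 0 and 4 of these classes, and in 19 of all pairs. The pair at chr5:115488951-115492731, with 2 snRNA genes, stood at the percentile of 96.0 for HSF1 and 24.1 for HSF2, and at 74.5 for HSF1 by the second means. At chr13:23500071-23501068, with 3 tRNA genes beside the histone cluster, HSF1 stood at 79.3 and HSF2 at 2.04. A small RNA gene of any of these kinds or a snoRNA gene lay in 46 of all pairs (5.18%) and in 26 pairs higher for HSF1 (13.9%). By the second means it lay in 16 of the 152 pairs higher for HSF1 (10.5%), with a tRNA gene in 9 and an snRNA gene in 6, so most pairs with such a gene were then not in this class. Of the 114 pairs higher for HSF1 with both sets, 14 (12.3%) held one.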
